A study of Mus musculus with 13 samples.

Results

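The 7 protein arginine methyltransferase genes Prmt1, Prmt2, Prmt3, Carm1, Prmt5, Prmt6 and Prmt7 were followed in growing mouse skin through 2 days and nights. They were selected by symbol, as probes annotated with that 1 symbol, and each gene had 1 such probe. All 7 of the 7 lay above the filter on low values, among 16322 genes that did. The family was chosen with its fitted 24 h waves already known, so these waves are described and not tested.

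The samples were whole skin from the back of C57Bl6 males aged 30 postnatal days, with hair follicles in their growth phase, anagen. Skin was taken at 4 h steps, ZT2 through ZT50, with ZT as the hours after lights on in a cycle of 12 h light and 12 h dark. Equal amounts of RNA from 3 mice were combined at each time, which gave 13 pools from 39 mice, each on 1 whole-transcript array. No mutation or treatment was named for any of these mice, and the labels set the pools apart by time of collection only. Each time also had its own mice and its own array, which cannot be told apart from time. The dark pools were ZT14, ZT18, ZT22, ZT38, ZT42 and ZT46, and the other 7 pools were taken in the light.

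Arginine methyltransferases move methyl groups from S-adenosylmethionine onto arginines of proteins, above all histones, RNA-binding proteins and spliceosome proteins. Prmt1, Prmt3, Carm1, Prmt6 and, weakly, Prmt2 make asymmetric dimethylarginine, Prmt5 makes the symmetric form, and Prmt7 adds a lone methyl group. In human epidermis PRMT1 is known for keeping progenitor cells proliferating, and in the plant Arabidopsis PRMT5 is known to set the pace of the circadian clock through splicing.

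The median intensity of the 13 arrays ranged from 439.98 to 483.2, and pools correlated with each other at 0.978 to 0.996 over the genes tested. The summed epidermal markers Krt5, Krt14, Krt1 and Krt10 stayed within 38390 to 43791, and 5 hair follicle markers within 39862 to 45062. Skeletal muscle was less even, with 8 of 8 markers present and a sum of 25585 in ZT2, 28695 in ZT46, 28883 in ZT18 and up to 52342 in ZT42. The ZT46 pool stood apart in hepatocyte markers, whose sum was 26921 there and 2890 to 8218 in the other 12 pools. In whole skin, fewer cells of a type and less RNA per cell cannot be told apart.

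Prmt1, the enzyme that makes most of the asymmetric dimethylarginine in mammalian cells, had the largest fitted 24 h amplitude of the 7. On the first day its intensity was 1305 in ZT2, 1297 in ZT6, 1125 in ZT10, 1057 in ZT14, 1161 in ZT18 and 1245 in ZT22. On the second day it was 1300 in ZT26, 1233 in ZT30, 1172 in ZT34, 1065 in ZT38, 1221 in ZT42 and 1240.1 in ZT46, and the last pool, ZT50, gave 1255. Both days had their lowest pool 14 h after lights on and their highest 2 h after lights on. The fitted wave had an amplitude of 0.12 ± 0.03 log2 (SE, 13 pools), a peak 1.68 ± 0.95 h after lights on and a peak-to-trough fold of 1.18.

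Ordered by mean intensity, the times of day ran 2 h (1287 ± 27.8, SD, n = 3), 6 h (1265 ± 45.2, n = 2), 22 h (1243 ± 3.44, n = 2), 18 h (1191 ± 42.4, n = 2), 10 h (1148 ± 33.7, n = 2) and 14 h (1061 ± 6.30, n = 2). The SD between Prmt1 pools of the same hour was 0.036 log2. The steps from 2 to 6 h and from 6 to 22 h, 0.025 log2 each, were smaller than that spread. The steps from 22 to 18 h (0.060), from 18 to 10 h (0.052) and from 10 to 14 h (0.11) were larger. Because the hours were ordered by their own means, these steps describe the known wave and do not test it. The dark pools of Prmt1 spanned 1057 to 1245 with a median of 1191, against 1125 to 1305 with a median of 1255 in the light pools, so the phases overlapped.

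**Figure D1:**
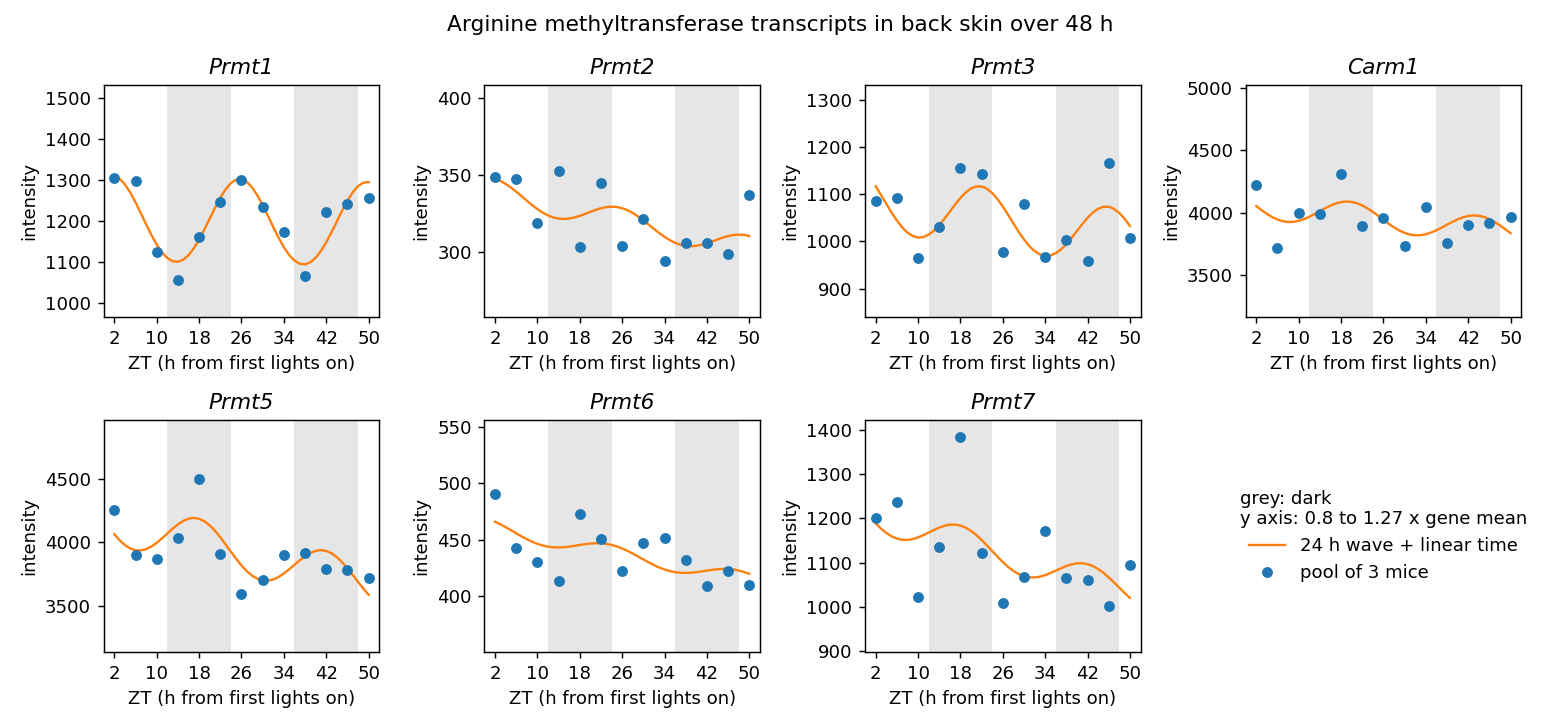
Intensity of each arginine methyltransferase (vertical axis, linear, each panel spanning the same range relative to the gene's mean and not starting at 0) against ZT in hours, with 1 point per pool of 3 mice, the fitted 24 h wave with linear time as a line and the dark phase in grey. Prmt1 falls to 1057 and 1065 in ZT14 and ZT38 and returns to 1300 in ZT26, while Prmt5 and Prmt7 have their highest pool in ZT18, at 4504 and 1385.

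The other 6 members had smaller fitted amplitudes than Prmt1. Prmt3, which modifies the ribosomal protein Rps2, had a lowest pool of 958 (ZT42), a median of 1030.2 and a highest pool of 1166 (ZT46). Its fitted amplitude was 0.086 ± 0.040 log2 with a peak at 21.9 ± 1.66 h and a fold of 1.13, and without ZT46 the amplitude was 0.066. Its time of day with the highest mean was 22 h, with 1155 ± 15.8 (SD, n = 2), and the step from there to the next lower mean, at 6 h, was 0.088 log2 beside a spread of 0.083 between pools of the same hour. Its dark pools spanned 958 to 1166 and its light pools 966 to 1091, so they overlapped.

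Prmt5, which with its partner Wdr77 modifies spliceosomal Sm proteins and histones, had a lowest pool of 3593 (ZT26), a median of 3899 and a highest pool of 4504 (ZT18). Its fitted amplitude was 0.067 ± 0.033 log2 with a peak at 17.8 ± 1.79 h and a fold of 1.097. The pools at 18 h differed widely, with 4504 in ZT18 and 3787 in ZT42, and without ZT18 the amplitude was 0.036. Carm1, a coactivator that methylates histones and splicing factors at promoters and on RNA, had a lowest pool of 3722 (ZT6), a median of 3957 and a highest pool of 4307 (ZT18). Carm1 varied least of the 7 over the pools, with a coefficient of variation of 4.36%, and its fitted amplitude was 0.039 ± 0.033 log2, which became 0.019 without ZT18 and 0.061 without ZT34. Its 6 h pools were both low (3727 ± 8.11, SD, n = 2), and the step up from 6 h to the next higher mean, at 14 h, was 0.054 log2, beside a spread of 0.052 between pools of the same hour.

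Prmt7, the monomethylating member, had a lowest pool of 1001 (ZT46), a median of 1095 and a highest pool of 1385 (ZT18). It varied most, with a coefficient of variation of 9.62%, and its fitted amplitude of 0.045 ± 0.050 log2 became 0.021 without ZT18 and 0.075 without ZT34. Prmt2, a nuclear receptor coactivator with weak activity, ran from 294 (ZT34) through a median of 319 to 353 (ZT14), with an amplitude of 0.034 ± 0.034 log2 (0.018 without ZT50 and 0.062 without ZT14). Prmt6, a nuclear enzyme that acts on histones, ran from 409 (ZT42) through a median of 432 to 490.4 (ZT2), with an amplitude of 0.021 ± 0.033 log2 (0.0044 without ZT2 and 0.046 without ZT34). For Prmt2, Prmt5, Prmt6 and Prmt7 no step between times of day neighbouring in mean exceeded the spread between pools of the same hour. For each of the 7 members dark and light pools overlapped. The share of all genes with such an overlap was not counted, so nothing about the family is read from it.

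The median fitted amplitude was 0.045 log2 over the 7 members and 0.061 over all 16322 genes, and 15.1% of all genes had a larger amplitude than Prmt1. With limma, 0 of 7 members had an adjusted p under 0.05 for the 24 h wave, where 0.141% of all genes did, and 1 of 7, Prmt1, had an unadjusted p under 0.05, where 9.54% did. These counts concern the wave that was known when the family was chosen, so nothing is read from them. The median residual SD around the wave was 0.071 log2 over the 7 members and 0.106 over all genes, with Prmt7 above the latter at 0.129. Genes of like brightness were not compared.

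**Figure D2:**
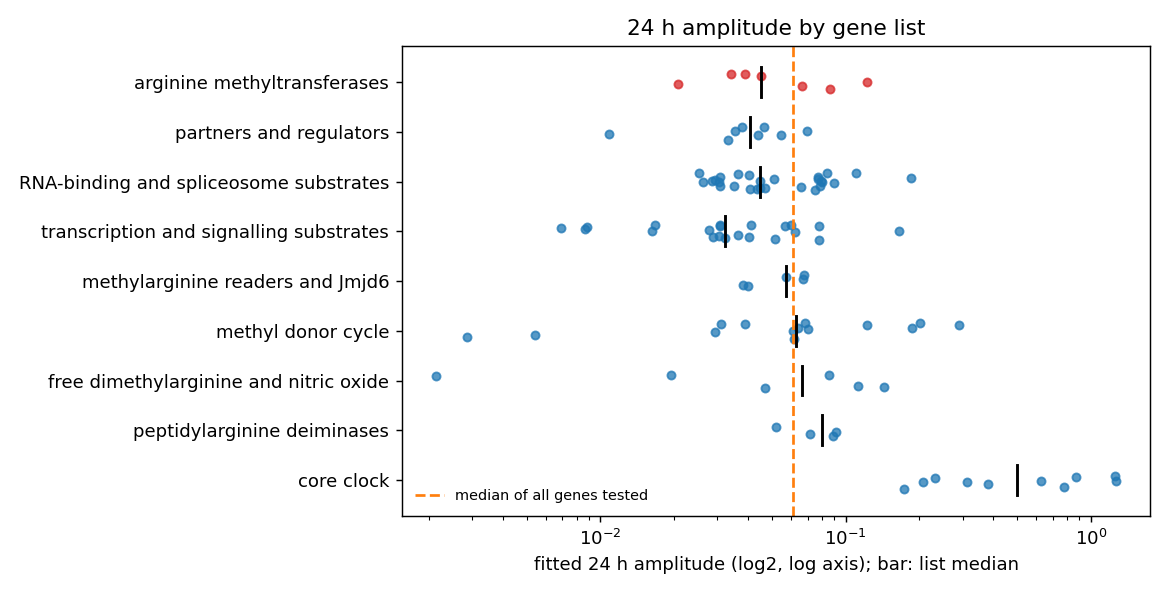
Fitted 24 h amplitude in log2 (horizontal axis, logarithmic) of the arginine methyltransferases (red), of the genes of related lists and of the core clock (blue), with 1 point per gene, a bar at each list's median and a dashed line at the median of all genes, 0.061. The methyltransferases lie between 0.021 and 0.12, below every core clock gene, the lowest of which is at 0.17.

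The upstream sequence of Prmt1 was examined because Clock and Arntl, the activators of the circadian clock, bind the E-box letters CACGTG. The windows came from RefSeq (GRCm38.p6) and covered 250 bases before to 50 bases after a start site of each gene. They were matched for 6 of the 7 members, and Carm1 had none. Of these 6, Prmt1 and Prmt3 held the E-box, which reads the same on both strands and stood in 7.15% of all 32851 windows. The Prmt1 window is chr7:44986371-44986670, minus strand, with the E-box 181 bases before the start. That of Prmt3 is chr7:49778108-49778407, plus strand, with the E-box 13 bases before the start site on which this window was set. The listed start of the Prmt3 gene, 49778319, lies upstream of that site and of the E-box. Both are printed 5′ to 3′ with the E-box in capitals.
Prmt1: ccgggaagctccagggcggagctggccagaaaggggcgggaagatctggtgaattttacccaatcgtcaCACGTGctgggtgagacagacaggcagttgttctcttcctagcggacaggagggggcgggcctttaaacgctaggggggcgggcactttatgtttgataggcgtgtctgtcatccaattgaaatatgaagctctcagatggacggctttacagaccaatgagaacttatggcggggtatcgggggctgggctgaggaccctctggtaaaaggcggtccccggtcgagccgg
Prmt3: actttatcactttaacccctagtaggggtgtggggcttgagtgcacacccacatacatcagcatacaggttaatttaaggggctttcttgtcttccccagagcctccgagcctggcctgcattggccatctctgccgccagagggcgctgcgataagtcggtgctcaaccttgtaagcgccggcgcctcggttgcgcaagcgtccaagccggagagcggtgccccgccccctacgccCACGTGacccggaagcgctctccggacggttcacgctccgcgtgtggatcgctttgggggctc

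Other letters were searched on both strands of the same 6 windows. The E-prime box CACGTT (4.68% of all windows), the D-box TTANGTAA (2.32%) and the ROR motif AGGTCA (16.3%) stood in none of them. The CCAAT box (37.4% of all windows) occurred 3 times in Prmt1, 4 times in Prmt5 and once each in Prmt2 and Prmt3. The GC box GGGCGG (35.7%) occurred 4 times in Prmt1 and 2 times in Prmt2, and once each in Prmt3 and Prmt7. The Prmt6 window held none of the letters searched. A match describes the letters only, and binding was not measured here.

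The first test on a measure that did not choose the family asked whether the members drifted over the 48 h. Linear time was tested beside the 24 h wave with limma (two-sided, adjusted over all genes). All 7 fitted slopes were negative, with a median of -0.073 log2 per 24 h, while 56.5% of all genes had a negative slope and their median was -0.010. No member passed (0 of 7, against 0% of all genes), and the smallest adjusted p of any gene was 0.246. At an unadjusted p under 0.05 there was 1 of 7 members, Prmt5, against 8.8% of all genes. The members share the pools, so their slopes are not independent of each other.

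Prmt5 averaged 3780.5 ± 121 on the second day and 4081 ± 252 on the first (SD, n = 6 each), and 5 of 6 hours were lower on the second day. Its slope was -0.090 ± 0.037 log2 per 24 h (SE, 95% interval -0.170 to -0.010, adjusted p = 0.516, limma), and the days overlapped. Prmt7 averaged 1063 ± 61.4 on the second day and 1183 ± 123 on the first, with a slope of -0.11 ± 0.06 (adjusted p = 0.604). Prmt2 averaged 305 ± 9.22 on the second day and 336 ± 20.2 on the first, with a slope of -0.078 ± 0.042 (adjusted p = 0.620). Both were lower at 5 of 6 hours of the second day. Prmt6 had a slope of -0.073 ± 0.039 (adjusted p = 0.614), Prmt3 one of -0.056 ± 0.045 (0.742) and Carm1 one of -0.039 ± 0.036 (0.778).

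Prmt1 averaged 1205 ± 79.8 on the second day and 1198 ± 100.3 on the first (SD, n = 6 each). Its slope was -0.0080 ± 0.033 log2 per 24 h (SE, 95% interval -0.079 to 0.063, adjusted p = 0.965, limma). Muscle markers moved the other way over the same time, with a slope of their mean of 0.30 log2 per 24 h. With the muscle and adipocyte means as covariates the slope was -0.040 for Prmt5, -0.053 for Prmt7, -0.031 for Prmt6, -0.0031 for Prmt3 and -0.10 for Prmt2.

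**Figure D3:**
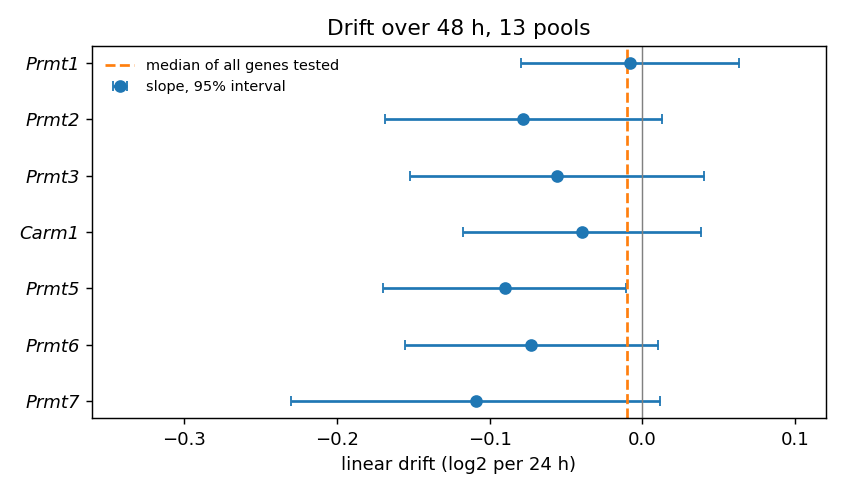
Linear slope over the 13 pools in log2 per 24 h (horizontal axis) of each arginine methyltransferase, beside its fitted 24 h wave, as a point with its 95% interval. The grey line marks 0 and the dashed line the median of all genes, -0.010. All 7 points lie below 0, that of Prmt1 (-0.0080) nearest to it, and of the 7 intervals only that of Prmt5 (-0.170 to -0.010) leaves out 0.

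The second test asked for a wave of 12 h beside that of 24 h. With limma 0 of 7 members passed, against 0% of all genes, and 0 of 7 had an unadjusted p under 0.05, against 1.78% of all genes. The fitted 12 h amplitudes lay between 0.012 and 0.069 log2. The largest was that of Prmt7 (0.069 ± 0.049, SE), and Prmt1 had 0.039 ± 0.028 (adjusted p above 0.99 for both). Without ZT18 the amplitude of Prmt7 was 0.025, below the 0.045 of both Prmt1 and Carm1.

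The third test compared the 24 h wave of the second day with that of the first over 6 pools each, leaving out ZT50. With limma 0 of 7 members differed, against 2.93% of all genes, and 0 of 7 had an unadjusted p under 0.05, against 26.6% of all genes. The 2.93% depended on the processing, and 0 genes passed under quantile normalization, median centring or no filter. Prmt1 peaked at 1.34 h with an amplitude of 0.11 log2 on the second day, and at 2.09 h with one of 0.15 log2 on the first. The difference between these waves had an amplitude of 0.047 (adjusted p = 0.818, limma). The smallest adjusted p among the members was that of Prmt6 (0.287), followed by Prmt7 (0.378) and Prmt5 (0.621). The p-values of these tests rest on the scatter of single pools around the fitted terms. Differences between mice, arrays and tissue make-up cannot be told apart in that scatter. Variation among the mice of a pool was not measured.

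The members were then set beside each other across the 13 pools, as a description over shared arrays. Over the 21 pairs, Pearson's r of the log2 values ranged from -0.25 to 0.83 with a median of 0.24. Prmt5 and Prmt7 had the highest r, 0.83 (Spearman's rho 0.70, and r = 0.57 without the 2 pools farthest from the median of Prmt5). Prmt5 and Prmt6 gave 0.69 (rho 0.52), Carm1 and Prmt5 0.68 (rho 0.38) and Prmt6 and Prmt7 0.66 (rho 0.63). These dropped to 0.21, 0.025 and 0.42 without the 2 farthest pools. ZT18 was the highest pool of Carm1, Prmt5 and Prmt7. With the other 6 members, r ran from -0.25 to 0.26 for Prmt1 and from -0.087 to 0.24 for Prmt2.

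Several members ran opposite to the muscle markers across the pools. With their mean, r was -0.73 for Prmt3 (rho -0.74, and -0.72 without the 2 farthest pools), -0.71 for Prmt5 (rho -0.74, -0.42 without), -0.63 for Prmt6 (rho -0.52, -0.18 without) and -0.52 for Prmt7 (rho -0.50, -0.15 without). It was -0.48 for Carm1 (rho -0.31), where it turned to 0.11 without the 2 farthest pools, -0.18 for Prmt2 and -0.13 for Prmt1. Muscle markers were lowest in ZT2, ZT18 and ZT46, and Prmt3 was highest in ZT46. With the muscle and adipocyte means as covariates the 24 h amplitude of Prmt3 was 0.031 log2, against 0.086 without them. With the hepatocyte markers r was 0.61 for Prmt3 (rho 0.66, and 0.42 without the 2 farthest pools). The part of these cells in the methyltransferase levels was not tested further.

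**Figure D4:**
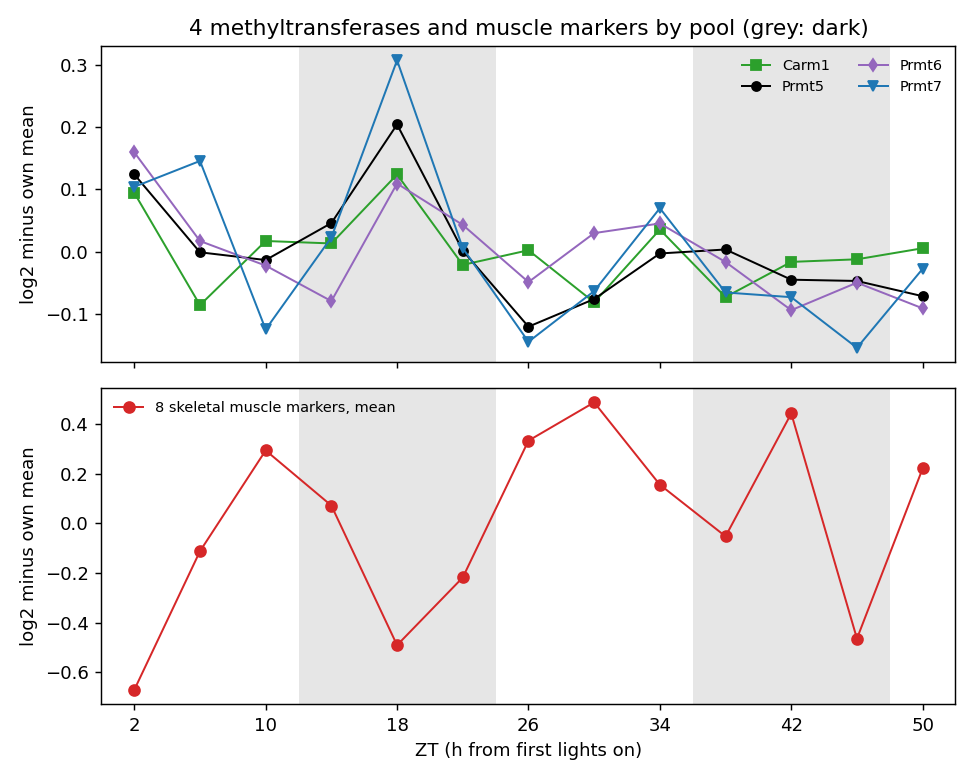
Log2 intensity relative to each gene's own mean (vertical axes) against ZT in hours for Carm1, Prmt5, Prmt6 and Prmt7 (upper panel) and for the mean of 8 skeletal muscle markers (lower panel, wider scale), with 1 point per pool and the dark phase in grey. All 4 genes are above their mean in ZT2 and ZT18, where the muscle mean is at -0.67 and -0.49, and below it in ZT46, where the muscle mean is at -0.46.

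The genes whose course over the 13 pools was most like that of Prmt1 were ranked by Pearson's r over all genes tested. Aplnr, the apelin receptor of vessels, led with r = 0.94 (rho 0.92, and 0.89 without the 2 farthest pools), a fitted peak at 2.07 h and a fold of 1.51. Psmb7, a proteasome subunit, had r = 0.89 and a fold of 1.12. Ap3s2, an adaptor subunit of vesicle traffic, had 0.87 and a fold of 1.17. Eif4a3, a helicase of the exon junction complex, had 0.85 and a fold of 1.32. The histone chaperone Daxx and the matrix protein gene Tnc, for tenascin C, also had r = 0.85, with folds of 1.13 and 1.21. Without the 2 farthest pools r was 0.67 for Eif4a3 and Tnc, and 0.76 to 0.82 for Psmb7, Ap3s2 and Daxx. All 6 had fitted peaks between 1.33 and 2.52 h after lights on, near that of Prmt1, which follows from their choice by r.

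At the other end stood genes with troughs where Prmt1 was high. Fmo1, a flavin monooxygenase, had r = -0.90 (rho -0.95), a fitted peak at 14.4 h and a fold of 1.83. Ndst3, which modifies heparan sulfate, had r = -0.90 with a peak at 14.1 h. Per2, a repressor of the clock, had r = -0.88 (rho -0.90) with a peak at 13.3 h and a fold of 2.38. The ranking is over 16322 genes in the same pools and has no test, and these peaks too follow from the choice by r.

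**Figure D5:**
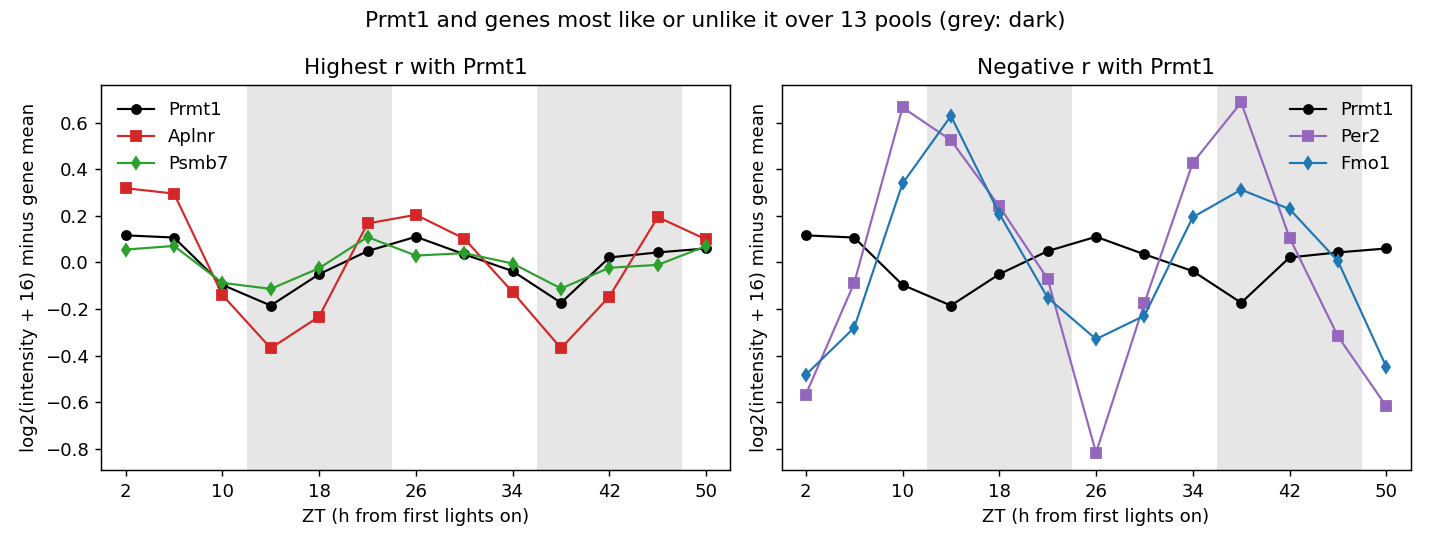
Log2(intensity + 16) relative to each gene's own mean (vertical axis) against ZT in hours for Prmt1 with Aplnr and Psmb7, of high r (left), and for Prmt1 with Per2 and Fmo1, of negative r (right), with 1 point per pool and the dark phase in grey. Aplnr and Psmb7 fall with Prmt1 in ZT14 and ZT38, and Per2 and Fmo1 are high there.

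The genes most like the other members differed from member to member. For Prmt5 they were Nt5dc2 (r = 0.95), Lmf2 (0.91) and the RNA-binding protein gene Stau1 (0.91), each highest in ZT18. For Prmt7 they were Cnksr3 (0.91), the zinc transporter Slc39a9 (0.90) and Camsap2 (0.90), also highest in ZT18. For Prmt6 they were Slc35e2 (0.92), Pgpep1 (0.91) and Cxxc1 (0.91), and for Carm1 the nuclear pore gene Nup188 (0.84), Irx3os (0.83) and Abr (0.80). Prmt3 went with Itfg1 (0.89), the vesicle coat gene Sec23b (0.88) and Krt74, a keratin of the inner root sheath (0.87). Prmt2 went with the helicase gene Ddx24 (0.88), Tfdp1 (0.83) and Vgll4 (0.81). Without the 2 pools farthest from the member's median, r was 0.72 to 0.93 for the genes named with Prmt5. It was 0.74 to 0.88 for those of Prmt7, 0.61 to 0.73 for Carm1 and 0.83 to 0.87 for Prmt6. For Prmt3 it was 0.82 to 0.89, and for Prmt2 0.71 to 0.82.

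Genes that work with the methyltransferases were taken from 8 lists, apart from the core clock. Of 97 genes listed 86 were tested. For the 24 h wave 0 of 86 passed, against 0.141% of all genes, and 5 (5.81%) had an unadjusted p under 0.05, against 9.54%. All 5 had fitted peaks in the light, with Esr1 (11.5 ± 0.64 h, SE) and Slc7a2 (11.8 ± 1.42 h) close to its end at 12 h. The share of light peaks over all genes was not counted. For drift 0 of 86 passed, against 0% of all genes, and 4 (4.65%) had an unadjusted p under 0.05, against 8.8%. For the 12 h wave 0 passed, against 0%, and 3 had an unadjusted p under 0.05, against 1.78%. For the difference between days 1 passed, Nos1, against 2.93%, and 12 (14.0%) had an unadjusted p under 0.05, against 26.6%. Under quantile normalization, median centring or no filter 0 of all genes passed for this difference.

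Among partners and regulators, 8 of 8 tested, the median 24 h amplitude was 0.041 log2, and the largest were those of Clns1a (0.070), the adaptor that brings Sm proteins to Prmt5, Epb41l3 (0.055) and Cnot7 (0.046). Btg2, an antiproliferative protein that binds Prmt1, had a slope of 0.13 ± 0.03 log2 per 24 h (limma, adjusted p = 0.326) and is named after its value was seen. Among RNA-binding and spliceosome substrates, 27 of 30 tested, the median was 0.045. Cirbp, the cold-inducible RNA-binding protein, had 0.18 ± 0.06 (SE) with a peak at 4.28 h, Taf15 had 0.11 ± 0.04 with a peak at 1.94 h and Gar1 0.090. Transcription and signalling substrates, 21 of 22 tested, had a median of 0.032. Esr1, the oestrogen receptor, had 0.17 ± 0.03 with a peak at 11.5 h and a fold of 1.26 (limma, adjusted p = 0.0691), beside Ppargc1a and Hoxa9 with 0.078 each.

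The readers of methylarginine and Jmjd6, 5 of 5 tested, had a median of 0.057, with Smndc1 at 0.068, Jmjd6 at 0.067 and Smn1, the Sm protein assembly factor, at 0.057. The methyl donor cycle, 14 of 17 tested, had a median of 0.063, led by Mat1a (0.29 ± 0.23), Nnmt (0.20 ± 0.05, peak 8.67 h), which consumes S-adenosylmethionine, and Gnmt (0.19 ± 0.09). The core clock list, 10 of 11 tested, had a median of 0.50, and 6 of 10 passed for the 24 h wave, against 0.141% of all genes. They were Arntl, Per2, Per3, Nr1d1, Nr1d2 and Dbp.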

How the data were processed

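RNA of whole back skin from 13 pools was labelled with biotin and hybridised to Affymetrix whole-transcript arrays, per the labels' protocols. The authors deposited 1 intensity per probe and array, which the range of the values shows to be linear. The submitters' processing notes name Affymetrix Expression Console 1.1.1 and PLIER 2.0, without saying what each did. Scaling between arrays and a genome build are not given in the sources used here. The number of arrays limits the precision.

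Of 35557 probes, 21789 had 1 gene symbol and 1621 several. Intensities were converted to log2(value + 16), so folds are on that scale and understate the change of dim genes. Probes whose mean fell under the 25th percentile (7.61 log2) were dropped, and the brightest of the rest stood for its gene, which left 16322 genes. RefSeq (GRCm38.p6) served for names and upstream windows only.

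Fits used limma 3.58.1 (R 4.3.3) over all genes with Benjamini-Hochberg adjustment and calls at an adjusted p under 0.05, after a test on simulated data. Cosine and sine terms of 24 h were fitted with linear time, the 12 h terms were added to these, and days were compared by the interaction of day with the wave. Amplitude is the height of the wave and the fold runs from peak to trough. Pools were grouped by the labelled ZT, and the labels carry no number that pairs them.

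The members, gene lists, markers and tests were chosen with earlier results of these data known. Named genes were the members, list genes called in any comparison plus the 3 of largest 24 h amplitude per list, and the 6 highest and 3 lowest r with Prmt1 and 3 highest with each other member, passing over predicted genes, RIKEN clones and small RNAs. Plots used matplotlib 3.10.9 (Python 3.11.15). As alternatives, arrays were quantile normalized or centred on their medians, the pseudocount was 1 or 64, the filter was dropped or moved to the 50th percentile, all probes of a gene were averaged, the prior was robust with an intensity trend, muscle and adipocyte means were covariates, linear time was dropped or replaced by day number, and each pool was left out.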

Additional observations from a re-analysis of the deposited data

Results flagged for a closer look

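Prmt5 and Prmt7 each had 1 dark pool far from the other 5. The ZT18 pool was the highest for both, and its gap to the next pool, divided by the whole range of the 6 dark pools, was 0.65 for Prmt5 and 0.653 for Prmt7. Prmt5 stood at 4504 there and Prmt7 at 1385. Of 14 sets of dark or light pools examined over the 7 members 2 stood out in this way, where chance gives about 1 in 20, and the pools are shared between genes.

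Nos1, the neuronal nitric oxide synthase that free asymmetric dimethylarginine inhibits, differed in its 24 h wave between the days (limma, adjusted p = 0.0441). Its amplitude was 0.15 log2 with a peak at 20.7 h on the second day, and 0.24 with a peak at 12.7 h on the first. On the second day its intensity was highest in ZT42 (535) and lowest in ZT34 (421), and on the first day highest in ZT14 (504) and lowest in ZT2 (360.2). The adjusted p was 0.114 with quantile normalization, 0.0740 with median centring and 0.0598 with no filter, and it ran from 0.0238 to 0.137 when each pool was left out in turn. The call held in 4 of those 13 fits and in 5 of the 8 other alternatives that gave Nos1 a fit. Those 5 include the fit with muscle and adipocyte means as covariates. The summed skeletal muscle markers were, like Nos1, highest in ZT42 (52342) and lowest in ZT2 (25585). In ZT46, where the muscle sum was 28695, Nos1 stood at 497. The part of muscle in the Nos1 level was not tested further.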

How the results depend on the processing

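For drift, the 12 h wave and the difference between days 0 of 7 members passed under every alternative run. The same count for the 24 h wave was also 0, but the family was chosen with that wave known, so nothing is read from it. Prmt2 and Prmt6 fall below the 50th percentile filter, so 5 members remain there. The Prmt1 24 h amplitude lay between 0.110 and 0.132 log2 when each pool was left out and between 0.117 and 0.146 under the other alternatives, and its fitted peak between 1.34 and 2.13 h and between 1.41 and 2.19 h. The slope of Prmt1 changed sign without ZT6 (0.0025) and without ZT50 (0.0087), within a range of -0.0194 to 0.00872. The slopes of the other 6 kept their sign under every alternative run, and those that moved by over 1.5 times when a pool was left out were that of Carm1, -0.018 without ZT2, of Prmt2, -0.12 without ZT50, of Prmt6, -0.046 without ZT2, and of Prmt7, -0.067 without ZT18. The slope of Prmt5 ran from -0.110 to -0.0646 (without ZT2). With muscle and adipocyte covariates the 24 h amplitude of Prmt2 was 0.081. Over all genes, 23 passed for the 24 h wave, with 15 under no filter, 10 with muscle and adipocyte covariates and 13 to 30 leaving out a pool. For the difference between days 478 passed, with 0 under quantile normalization, median centring or no filter, 5 with the 50th percentile filter, 1659 with muscle and adipocyte covariates and 0 to 1567 leaving out a pool. The 1567 was without ZT42, and without ZT46 the count was 1. The cause of these shifts was not tested. The labels carry no replicate numbers, so no replicate block was fitted, and a test pairing the days by hour was not run. The number of arrays limits the precision.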

Other observations

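The family's remaining genes in the table were Prmt9 and Prmt8. Prmt9, which makes symmetric dimethylarginine, had a lowest pool of 543, a median of 643 and a highest pool of 724, with a 24 h amplitude of 0.058 log2 and a slope of -0.10 ± 0.05 log2 per 24 h (SE, 13 pools, limma, adjusted p = 0.582). Prmt8, a membrane-bound enzyme known mainly from brain, lay between 75.8 and 119 with a median of 98.9, below the filter on low values, and was not tested.

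The peptidylarginine deiminases, which convert arginine to citrulline in proteins of epidermis and hair, had a median 24 h amplitude of 0.080 log2 over the 4 of 5 genes tested. Padi1 had 0.092, Padi4 0.089 and Padi2 0.072, and 0 of 4 passed for the 24 h wave (0.141% of all genes), drift (0%), the 12 h wave (0%) or the difference between days (2.93%). Genes of free dimethylarginine and nitric oxide, 6 of 8 tested, had a median of 0.066. Slc7a2, a carrier of cationic amino acids, had 0.14 ± 0.05 (SE) with a peak at 11.8 h, Ddah2, a relative of the enzyme that breaks down dimethylarginine, had 0.11, and Nos1 had 0.085. Slc7a1, named after its value was seen, had a slope of -0.13 ± 0.04 log2 per 24 h (limma, adjusted p = 0.365).

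Mat1a, the S-adenosylmethionine synthetase typical of liver, was highest in ZT46 with 809 and lowest in ZT34 with 138. The hepatocyte markers were also highest in ZT46, and their part in the Mat1a level was not tested.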
